A study of Mus musculus with 2 samples.

Results

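The genes described here encode the protein subunits of the mitochondrial ribosome in mouse gastrocnemius, the large muscle of the calf. They were chosen by name, as genes with a protein_coding transcript whose symbol begins with Mrpl or Mrps and a number, which gave 78 genes of the 55450 genes used from the annotation. Of these, 51 encode proteins of the large subunit and 26 proteins of the small subunit. Mrps18a and Mrps30 are named for the small subunit but sit in the large one and were counted there. Mrps36, a component of the 2-oxoglutarate dehydrogenase complex that keeps a ribosomal name, was counted in neither.

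The data are 2 total RNA libraries from adult female mice, 8 to 10 months old, of a cross of 5xFAD with CAST. 5xFAD is a transgenic model of Alzheimer's disease that carries mutated human transgenes, and CAST is a wild-derived inbred strain. Both libraries are from 1 group and share the genotype, sex, age and tissue, and no control group is among the samples. Each was made from 300 ng of RNA with a strand-aware kit and ERCC spike-in RNAs, which are synthetic RNAs of known amount. The labels give both libraries 1 donor identifier but separate tissue identifiers, which leaves the number of animals unclear, and the spread between the libraries may be technical. The human transgenes lie outside the mouse annotation used. Each mean below is given with its SD over n = 2 libraries, and no test between groups was possible.

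Mitochondrial ribosomes translate the few messenger RNAs of the mitochondrial genome, all of which encode hydrophobic subunits of the respiratory chain and the ATP synthase. Their ribosomal RNAs are made inside the mitochondrion, while every protein subunit is encoded in the nucleus, made in the cytosol and imported. Compared with its bacterial ancestor, the mammalian mitochondrial ribosome has less RNA and more protein, with many subunits that have no bacterial counterpart. Skeletal muscle depends on this system for the respiratory chain that supplies ATP during sustained work.

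The tissue label was checked against cell type markers. All 8 muscle fibre markers were detected, with a summed level of 71062 TPM in library 1 and 81470 TPM in library 2. TPM is a share of all transcripts in the library, corrected for transcript length and scaled to a fixed total, and a gene counted as detected at 1 TPM or more. Markers of the other cell types reported here were far lower, the highest sum being that of the 4 erythroid genes at 224 and 234 TPM, and neither of the 2 satellite cell markers was detected in both libraries. Library 1 summed to 35594289 expected counts and library 2 to 34541905. Because the tissue was sequenced in bulk, fewer cells of a type and less RNA per cell cannot be told apart.

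The promoters of 5 genes are printed first because they hold, or lack, the short motifs counted further on, and because 3 of them belong to the most abundant messages of the set. Each is the reference sequence of 250 bases before to 50 bases after the annotated start, from RefSeq on GRCm38.p6, read in the direction of the gene. Capitals mark an ETS core (CCGGAAG on either strand, so CTTCCGG in Mrps21), the 10-base NRF1 palindrome (the capitals in Mrpl32, the same on both strands) or a 10-base YY1 core (the second run of capitals in Mrps18a, searched on both strands). ETS factors such as GABP, the factor NRF1 and the factor YY1 are known regulators of nuclear genes for mitochondrial proteins. The regions are those of Mrps21 (chr3:95871465-95871764, minus strand), Mrpl51 (chr6:125191950-125192249, plus strand), Mrpl42 (chr10:95501900-95502199, minus strand), Mrps18a (chr17:46110754-46111053, plus strand) and Mrpl32 (chr13:14612988-14613287, minus strand).

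Mrps21: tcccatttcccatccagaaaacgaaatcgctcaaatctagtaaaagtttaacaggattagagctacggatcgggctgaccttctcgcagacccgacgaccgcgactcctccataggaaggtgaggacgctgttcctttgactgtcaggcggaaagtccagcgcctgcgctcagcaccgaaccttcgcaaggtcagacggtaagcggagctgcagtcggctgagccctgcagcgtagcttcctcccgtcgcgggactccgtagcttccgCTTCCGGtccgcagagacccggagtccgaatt
Mrpl51: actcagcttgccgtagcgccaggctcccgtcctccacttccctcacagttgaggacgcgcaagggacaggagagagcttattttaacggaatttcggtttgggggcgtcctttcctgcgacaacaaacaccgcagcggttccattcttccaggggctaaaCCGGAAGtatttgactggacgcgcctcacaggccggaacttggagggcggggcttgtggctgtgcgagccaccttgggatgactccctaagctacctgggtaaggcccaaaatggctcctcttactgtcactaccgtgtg
Mrpl42: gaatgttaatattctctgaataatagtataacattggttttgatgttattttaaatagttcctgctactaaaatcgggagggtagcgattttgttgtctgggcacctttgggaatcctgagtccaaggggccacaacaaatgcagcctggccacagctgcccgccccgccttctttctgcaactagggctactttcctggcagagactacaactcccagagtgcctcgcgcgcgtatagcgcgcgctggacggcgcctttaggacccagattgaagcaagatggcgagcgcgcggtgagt
Mrps18a: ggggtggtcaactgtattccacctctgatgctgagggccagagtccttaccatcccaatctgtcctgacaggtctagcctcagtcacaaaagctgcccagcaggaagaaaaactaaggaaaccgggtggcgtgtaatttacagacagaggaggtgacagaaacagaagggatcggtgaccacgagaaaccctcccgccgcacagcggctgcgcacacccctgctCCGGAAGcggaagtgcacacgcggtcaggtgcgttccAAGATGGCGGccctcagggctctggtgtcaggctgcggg
Mrpl32: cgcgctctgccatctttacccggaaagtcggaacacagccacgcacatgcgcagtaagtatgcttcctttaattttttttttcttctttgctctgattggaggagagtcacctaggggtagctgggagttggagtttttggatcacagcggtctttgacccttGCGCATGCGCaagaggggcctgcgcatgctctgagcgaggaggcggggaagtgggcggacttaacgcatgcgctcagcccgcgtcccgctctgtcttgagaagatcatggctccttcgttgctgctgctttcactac

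Mrps21 and Mrpl51 each hold 1 ETS core, Mrps18a holds an ETS core and a YY1 core, Mrpl32 holds the NRF1 palindrome, and the window of Mrpl42 holds none of these exact strings.

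Nearly the whole set was expressed. In both libraries 77 of 78 genes were detected, the exception being Mrpl23, which is treated separately below. At 10 TPM or more in both libraries were 66 of them, and 64 had a mean between 10 and 60 TPM. The median gene of the set stood at 20.2 TPM in library 1 and 22.6 TPM in library 2 (21.4 ± 1.73). Among the 10081 nuclear protein-coding genes with a mean of at least 1 TPM, the median was 7.18 and 7.98 TPM, and the typical member lay at percentile 77.8 of them. Together the 78 genes held 0.544% of all nuclear protein-coding TPM in library 1 and 0.549% in library 2 (0.546 ± 0.00354%).

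**Figure D1:**
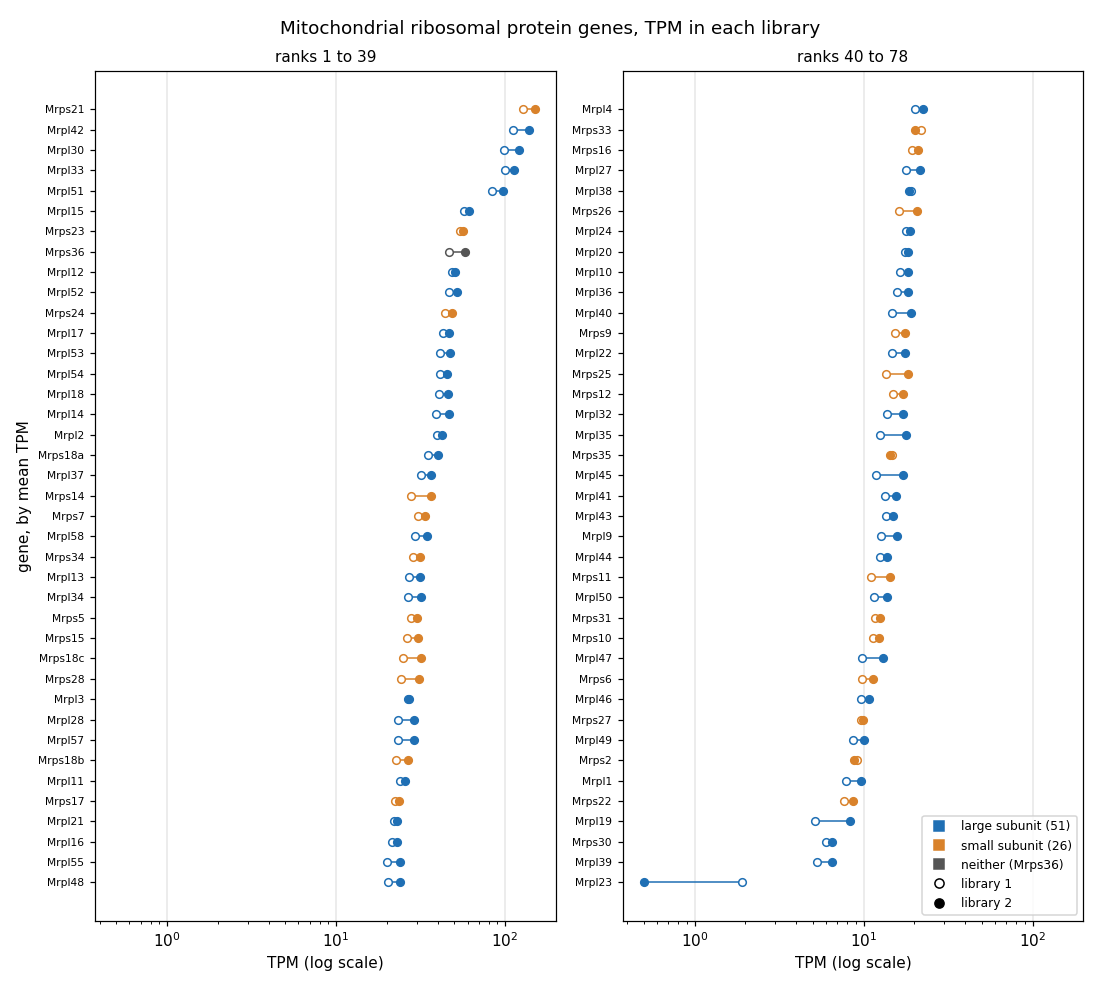
TPM of each of the 78 genes on a log axis, ordered by mean TPM, with library 1 as open and library 2 as filled circles and the colour giving the subunit. The 5 highest genes, from Mrps21 to Mrpl51, stand apart above 80 TPM in both libraries, most others lie between 10 and 60 TPM, and Mrpl23 is far to the left.

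A handful of messages stood well above the rest. Mrps21, a small-subunit protein with a bacterial counterpart (ENSMUSG00000054312.6, mm10 chr3:95862634-95871519, minus strand), was the highest at 127.58 TPM in library 1 and 150.27 TPM in library 2 (139 ± 16.0), 6.43 times the member median. Mrpl42, a large-subunit protein found only in mitochondria, followed at 111 and 139 TPM. Mrpl30 stood at 99.3 and 121 TPM. Both Mrpl30 and Mrpl33 are large-subunit proteins with bacterial counterparts, and Mrpl33 was at 101 and 114 TPM. Mrpl51, another protein particular to mitochondria, was at 83.6 and 97.0 TPM. Down to Mrpl33 the ranges of neighbours overlap, while Mrpl51 lay below Mrpl33 with no overlap. Within each library, Mrps21 was above Mrpl42, and Mrpl42 above both Mrpl30 and Mrpl33. The first 4 of these genes alone held 20.6% of the summed member TPM in library 1 and 21.4% in library 2.

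The next 7 genes formed a closer group. Mrpl15, a conserved large-subunit protein, was at 57.6 and 61.6 TPM, and Mrps23, a mitochondria-specific small-subunit protein, was at 54.3 and 56.7 TPM. Mrps36 was at 46.7 and 58.0 TPM, so the one member that is no ribosomal subunit ranked among the highest. Mrpl12 (48.3 and 50.9 TPM), Mrpl52 (46.5 and 52.1 TPM), Mrps24 (44.3 and 48.3 TPM) and Mrpl17 (42.9 and 46.9 TPM) completed it. From Mrps23 down, the ranges over the libraries of neighbours in this order overlap. Within each library, however, Mrpl52 was above Mrps24 and Mrps24 above Mrpl17. The order of Mrps23, Mrps36, Mrpl12 and Mrpl52 changed between the libraries. Mrpl15 lay above Mrps23 in both libraries with no overlap. Ranks 13 to 68 ran from Mrpl53 at 44.3 ± 4.15 TPM to Mrps6 at 10.6 ± 1.03 TPM.

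At the lower end, Mrpl46 was at 9.70 and 10.8 TPM, Mrps27 at 9.61 and 9.94 TPM and Mrpl49 at 8.60 and 10.1 TPM. Mrps2 was at 9.12 and 8.74 TPM, Mrpl1 at 7.92 and 9.71 TPM and Mrps22 at 7.70 and 8.63 TPM. Below them came Mrpl19 at 5.17 and 8.34 TPM, Mrps30 at 6.02 and 6.48 TPM and Mrpl39 at 5.27 and 6.48 TPM. Apart from Mrpl23, the lowest and the highest gene of the set therefore had levels of 5.88 ± 0.856 and 139 ± 16.0 TPM, although the proteins they encode enter the same particle.

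The spread between genes was nevertheless narrow next to that of other genes. The interquartile range of log2 TPM, computed with 0.1 TPM added, was 1.24 in library 1 and 1.21 in library 2 (1.22 ± 0.021). The 82 cytosolic ribosomal protein genes had 1.18 and 1.20, and nuclear protein-coding genes with a mean of at least 1 TPM had 2.54 in both. Levels ran against length: over the 78 genes, log2 TPM and log2 of the gene's mean transcript length had a Pearson r of -0.65 and a Spearman rho of -0.65. Transcript length also enters the computation of TPM, so the quantities are not independent, and genes are not replicates. Of the 5 highest genes, Mrps21 and Mrpl33 had mean transcript lengths of 425 and 483 bases, and Mrps30, near the bottom, had 3329 bases.

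The medians of large and small subunit genes differed by less than the SD of that difference between the libraries. The large-subunit median was 20.2 and 22.9 TPM and the small-subunit median 20.6 and 20.8 TPM. On the log2 scale the large minus small difference was -0.026 in library 1 and 0.14 in library 2 (0.058 ± 0.12), so its sign differed between the libraries. Subunits with a bacterial counterpart had a higher median than those found only in mitochondria. The 48 conserved genes had medians of 22.1 and 23.9 TPM and the 29 mitochondria-specific genes had 14.8 and 18.6 TPM. That log2 difference was 0.57 in library 1 and 0.36 in library 2 (0.47 ± 0.15), a fold of 1.38 at the mean. The middle ranges of both lists overlap broadly, with upper quartiles of 32.2 and 32.1 TPM. Conserved genes had a median transcript length of 921 bases and mitochondria-specific genes 1128 bases. Whether length bears on the difference was not tested.

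**Figure D2:**
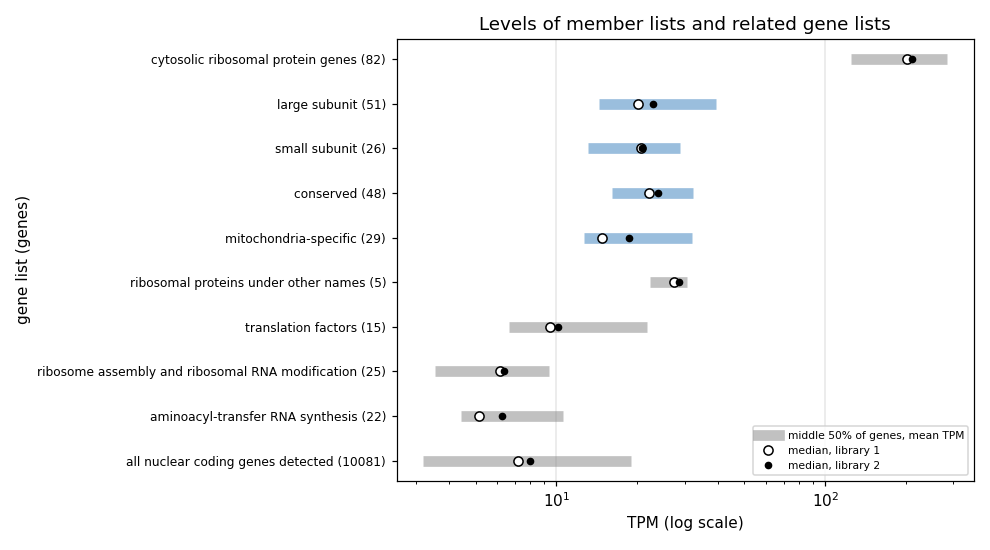
Gene lists on a log TPM axis, with bars for the middle 50% of genes by mean TPM and circles for the list's median in each library, the number of genes in brackets. The member lists (blue) share most of their range, lie about an order of magnitude under the cytosolic ribosomal protein genes, and lie above the lists for ribosome assembly and aminoacyl-transfer RNA synthesis.

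By place in the ribosome, levels were as follows. The 5 genes grouped here as at or near the peptidyl transferase centre, where peptide bonds are formed, had a median of 21.6 and 22.9 TPM. Mrpl2 was the highest of them at 39.7 and 42.4 TPM, Mrpl3 was at 26.6 and 27.2 TPM, Mrpl16 at 21.6 and 22.9 TPM, Mrpl4 at 20.1 and 22.3 TPM and Mrpl27 at 17.9 and 21.5 TPM. This list was the most even of the role lists, with a log2 interquartile range of 0.41 in library 1 and 0.28 in library 2.

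The 4 genes of the factor-binding stalk, which recruits translation factors, had a median of 32.6 and 36.3 TPM. Mrpl12 and Mrpl53 were the higher pair, Mrpl53 at 41.3 and 47.2 TPM. Mrpl11 was at 23.8 and 25.5 TPM and Mrpl10, which anchors the copies of Mrpl12 to the ribosome, at 16.5 and 18.4 TPM. Thus Mrpl12 had about the level of Mrpl53 and was well above its anchor Mrpl10 in both libraries.

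Around the exit tunnel and on the side that faces the inner membrane, the 8 genes had a median of 12.2 and 15.4 TPM. Mrpl17 was the highest, as given above. Mrpl24 was at 17.9 and 18.9 TPM, Mrpl22 at 14.6 and 17.6 TPM and Mrpl44 at 12.5 and 13.7 TPM. Mrpl45, which binds the inner membrane, was at 11.9 and 17.0 TPM and Mrpl47 at 9.81 and 13.0 TPM. By mean TPM, Mrpl39 and Mrpl23 were the lowest of this list and of the whole set. The entry of Mrpl23, which also enters the median, depends on how reads shared with a copy were divided, as described below. With the TPM of that copy added, Mrpl23 had 65.0 and 67.6 TPM, above Mrpl17.

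The central protuberance, the part of the large subunit that contacts the small subunit and transfer RNA, had 6 genes with a median of 16.9 and 18.8 TPM. Mrpl18 was at 40.6 and 45.7 TPM, Mrpl48 at 20.2 and 23.9 TPM, Mrpl38 at 19.0 and 18.6 TPM and Mrpl40 at 14.8 and 19.0 TPM. Mrpl46 and Mrps30 were its low members. For the small subunit, the 4 genes of the decoding site and messenger RNA path had a median of 21.4 and 23.7 TPM, with Mrps24 at the top, Mrps5 at 27.8 and 30.3 TPM, Mrps12 at 15.0 and 17.0 TPM and Mrps2 at the bottom.

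Mrps18a, Mrps18b and Mrps18c encode related proteins that occupy different sites, the first in the large and the other two in the small subunit. Mrps18a was at 34.9 and 40.4 TPM, Mrps18b at 22.6 and 26.7 TPM and Mrps18c at 25.1 and 31.7 TPM. Mrps18a was above both relatives in each library. Mrps18c was also above Mrps18b in each library, although the ranges of Mrps18b and Mrps18c overlap.

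Cytosolic ribosomes are built from a separate set of genes, and these were much more abundant. Their median was 201 TPM in library 1 and 211 TPM in library 2, and they held 4.30% and 3.98% of nuclear protein-coding TPM. The log2 difference of the medians, cytosolic minus mitochondrial, was 3.31 and 3.21 (3.26 ± 0.068), a fold of 9.59. No p-value was computed. The difference is many times its SD between the libraries, but that SD does not measure the spread of genes within each list.

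Other genes of mitochondrial translation covered a wide range. The 5 mitochondrial ribosomal protein genes that carry other names were all detected, with a median of 27.3 and 28.7 TPM. Chchd1 was their highest at 52.4 and 56.3 TPM and Gadd45gip1 their lowest at 7.98 and 9.72 TPM. All 15 translation factor genes were detected with a median of 9.46 and 10.1 TPM. Tufm, the elongation factor that brings transfer RNA to the ribosome, reached 51.7 and 51.4 TPM, and Slirp, which stabilises mitochondrial messenger RNA, reached 58.4 and 60.2 TPM.

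The 25 genes for ribosome assembly and ribosomal RNA modification were all detected, at a median of 6.16 and 6.39 TPM. Malsu1, which binds the assembling large subunit, was the highest of them at 22.5 and 21.2 TPM. Of the 22 genes for aminoacyl-transfer RNA synthesis, 21 were detected in both libraries, the exception being Pars2 at 0.62 and 1.37 TPM. The median of this list was 5.15 and 6.26 TPM. The mitochondrial ribosomal RNAs themselves were at 38737 TPM (mt-Rnr1) and 54051 TPM (mt-Rnr2) in library 1 and at 45681 and 62151 TPM in library 2. The ratio of the small to the large ribosomal RNA was 0.717 and 0.735. This ratio was lower in the second quantifier described below. There mt-Rnr1 was at 31244 and 38170 TPM and mt-Rnr2 at 52669 and 62584 TPM.

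Agreement between the libraries was close. Over the 78 genes, log2 TPM in one library and the other had a Pearson r of 0.976, or 0.991 without Mrpl23, given as a description since the points share both libraries. For ratios between libraries, expected counts were put on a common scale with TMM, edgeR's trimmed-mean factor, because on deposited TPM the ratio of the median gene, library 2 over library 1, was 0.17 in log2. On the TMM scale the median ratio was 0.018 over the members and 0.0074 over the 11065 genes tested. Ratios above 0 were found for 45 of 78 members, beside 51.9% of all genes tested. This count depended on the scaling: it was 28 of 78 with spike-in totals, where the median was -0.052 over the members and -0.063 over all genes, and 73 of 78 on deposited TPM. The cytosolic ribosomal protein genes lay lower, with a median of -0.096 and 69 of 80 genes higher in library 1.

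Only Mrpl23 passed 1.5-fold between the libraries, where 5.23% of all genes tested did. It was higher in library 1, as were 3.17% of all genes, and no member was past 1.5-fold toward library 2, where 2.06% were. The shares were lower among nuclear protein-coding genes, where 182 of 10077 were past it toward library 1 and 124 toward library 2. A 95% counting interval (Clopper-Pearson) that excluded 0 was found for 13 members, 9 above and 4 below, beside 30.4% of all genes, 15.9% above and 14.5% below. The interval covers counting error only, and there was 1 library on each side, so it compares these libraries. Expected counts per library ran from 222 for Mrps6 to 2069 for Mrpl42, apart from Mrpl23.

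Toward library 2 the largest log2 ratios were those of Mrpl45 (0.28, interval 0.15 to 0.42), Mrpl1 (0.28, interval 0.12 to 0.44), Mrpl35 (0.26, interval 0.11 to 0.41), Mrps11 (0.25) and Mrpl19 (0.23). Mrpl1 lies at the ribosome's transfer RNA exit side and Mrps11 on the platform of the small subunit. Toward library 1, after Mrpl23, they were those of Mrps2 (-0.22, interval -0.41 to -0.043), Mrpl38 (-0.20), Mrpl3 (-0.18) and Mrps5 (-0.12). Each of these 9 genes differed by less than 1.5-fold.

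**Figure D3:**
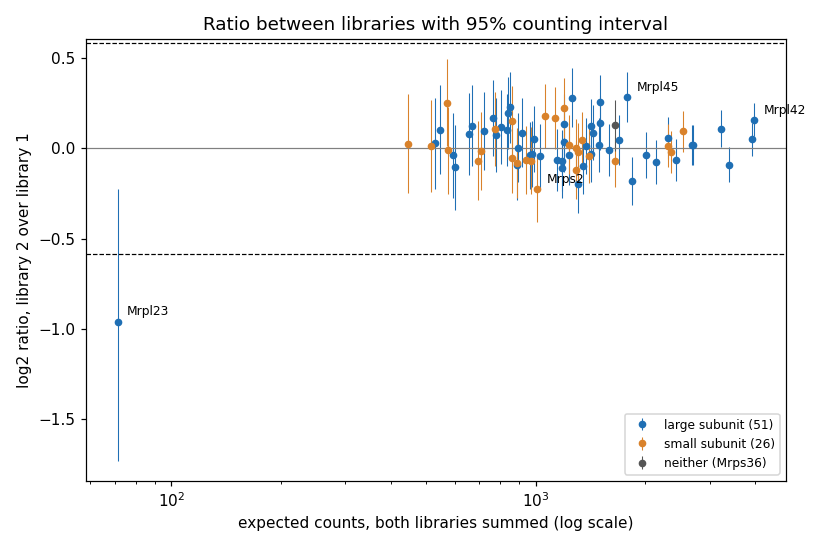
Log2 ratio of library 2 over library 1 for each gene against its summed expected counts (log axis), with bars for the 95% counting interval and dashed lines at 1.5-fold in either direction. All genes but Mrpl23 lie inside the dashed lines, and Mrpl23 has the fewest counts.

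Genes of the related lists also stayed mostly within 1.5-fold. Among the 99 genes of the related lists, Lars2 was the one gene with a mean of at least 1 TPM past 1.5-fold. Pars2, Mterf1a and Mterf1b were below that mean, and 5.23% of all genes tested were past 1.5-fold. Lars2, the mitochondrial leucyl-transfer RNA synthetase, was at 17.0 and 32.7 TPM with a log2 ratio of 0.78 (interval 0.69 to 0.86). Its level depended on the quantifier, since the second gave 48.8 and 92.8 TPM. Of the regulators, Esrra stood at 30.9 and 37.8 TPM, Gabpa at 10.53 and 12.02 TPM, Yy1 at 12.10 and 12.02 TPM and Nrf1 at 4.03 and 5.28 TPM. Ppargc1b, a coactivator of mitochondrial genes, had a log2 ratio of 0.49 (interval 0.32 to 0.68).

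Mrpl23, a conserved protein at the exit tunnel (ENSMUSG00000037772.13, mm10 chr7:142532686-142540747, plus strand), had 47.67 expected counts in library 1 and 23.63 in library 2, or 1.91 and 0.50 TPM. Its log2 ratio was -0.96 with a counting interval of -1.73 to -0.22. The processed pseudogene Mrpl23-ps1, an intronless copy on another chromosome (mm10 chr2:74591330-74591909, minus strand), held 920.33 and 846.37 counts, or 63.1 and 67.1 TPM. The copy thus took 95.1% and 97.3% of the summed counts of the pair.

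The coding sequence of Mrpl23, 438 bases in transcript 201, occurs in the copy with 0 mismatches and 0 gaps. Over the whole of transcript 201, 540 of its 692 bases aligned to the copy and all 540 were identical. Its first 150 coding bases are shown because no read that lies within them can be told apart between the loci, with the start codon in capitals.

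Mrpl23: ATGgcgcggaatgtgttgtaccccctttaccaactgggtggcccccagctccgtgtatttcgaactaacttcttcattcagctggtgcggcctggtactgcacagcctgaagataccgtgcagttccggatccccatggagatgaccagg

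The quantifiers divided these reads in opposite ways. Besides the gene tables used so far (the first quantifier), transcript tables from a second quantifier are deposited. There Mrpl23 held 1056 and 962 estimated counts, or 65.2 and 72.8 TPM, and Mrpl23-ps1 was listed at 0 in both libraries. The sum of gene and copy in the first quantifier was 968 and 870 counts, or 65.0 and 67.6 TPM (66.3 ± 1.82). Its log2 ratio was -0.11 with an interval of -0.25 to 0.019, so the difference between libraries seen for the gene's own entry was not seen for the sum. From which locus the shared reads came cannot be told apart with these tables. At the level of the sum, Mrpl23 would stand between Mrpl51 and Mrpl15, not at the bottom of the set.

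**Figure D4:**
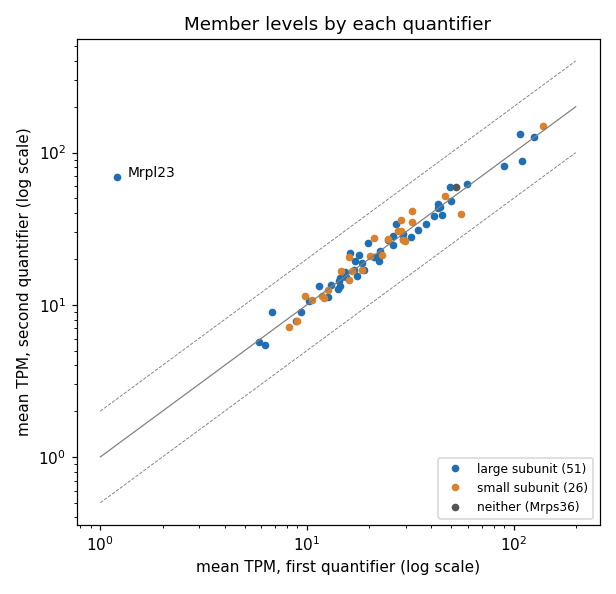
Mean TPM of each gene by the first (x) and the second (y) quantifier on log axes, with the line of equality and dashed lines at 2-fold. Mrpl23 alone lies beyond 2-fold, and all other genes follow the line of equality.

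No other member differed this much. The mean TPM of 74 members agreed within 1.3-fold between the quantifiers and that of 77 within 1.5-fold, while Mrpl23 differed by 57.3-fold. Over the 78 genes, log2 TPM by both quantifiers had a Pearson r of 0.797, and 0.982 without Mrpl23. Processed copies exist for several other members but held far fewer counts than Mrpl23-ps1. The copy Gm5776 of Mrps33 held 67.0 and 54.1 counts, AC154457.3 (related to Mrps10) held 54.2 and 65.5, and Mrpl48-ps held 72.0 and 94.6. Of the summed counts of each pair these were 13.1% and 11.5%, 13.1% and 15.9%, and 9.06% and 10.9%. Gm13328 (related to Mrps5) held 53.8 and 38.3 counts, or 7.33% and 5.93%. Gm5776 had 9.96 and 9.30 TPM, beside 21.85 and 20.19 TPM for Mrps33. In the second quantifier Gm5776 held 12.6 and 6.03 counts. Mrpl53 lies wholly inside the annotated gene Gm42688, which took 39.2 and 22.6 counts, and reads of these genes could be divided with such entries.

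Which transcript carried a member's TPM varied from gene to gene. In the median gene, 97.4% of TPM in library 1 and 96.7% in library 2 (97.0 ± 0.44%) was assigned to transcripts annotated as protein_coding, and 53 of 78 genes were above 90%. Over the summed member TPM, however, the share was 77.6% and 78.0%. Of the remainder, 8.32% and 8.27% was in processed_transcript, 8.05% and 7.89% in retained_intron and 6.03% and 5.88% in nonsense_mediated_decay models, the annotation's classes for transcripts without an open frame, with an unspliced intron or with an early stop.

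In 19 genes less than 60% of TPM was in protein_coding models. Mrpl51, one of the 5 highest genes, had 4.03%, and Mrps26 4.06%, Mrps14 4.45%, Mrps16 4.72%, Mrpl15 4.94% and Mrpl57 5.41%. Mrpl32 (6.60%), Mrps25 (8.69%), Mrpl3 (12.5%) and Mrps24 (14.6%) were also low. Mrpl23 had 27.7%, Mrps11 35.4%, Mrps5 37.9%, Mrpl47 37.9%, Mrpl35 38.5%, Mrpl13 38.6%, Mrpl19 41.4%, Mrps35 44.2% and Mrps7 59.2%. These are means over both libraries of the first quantifier, and 18 of the 19 were also under 60% in the second. The exception was Mrpl23, at 80.0% and 67.0% there. In the first quantifier its share was 55.5% in library 1 and 0% in library 2, at only 1.91 and 0.50 TPM.

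Transcript model lengths moved with these shares. In the 19 genes the shortest protein_coding model had a median length of 1962 bases, against 744 bases in the 53 genes above 90%. In 12 of the 19, the transcript with the highest TPM was shorter than every protein_coding model of the gene, and in 16 of them it was not protein_coding, being a nonsense_mediated_decay model in 6, a retained_intron model in 5 and a processed_transcript model in 5. For Mrpl51, the single protein_coding model has 3427 bases, while the processed_transcript model Mrpl51-202 of 855 bases held 62.4% and 66.5% of the gene's TPM. By counts, which are not divided by length, the protein_coding model of Mrpl51 held 18.1% and 16.6%. The median count share of the 19 genes was 33.1% in library 1 and 31.7% in library 2. Some of them held most of their counts in protein_coding models, such as Mrpl19 (89.6% and 87.0%) and Mrps7 (85.0% and 85.2%). In Mrps14, the nonsense_mediated_decay model of 674 bases held 94.7% and 96.4% of TPM, and the protein_coding models have 787 and 2999 bases. A long protein_coding model did not always go with a low share, since Mrps30, whose shortest has 3319 bases, had 97.9%. Whether the length of the models sets these shares was not tested.

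**Figure D5:**
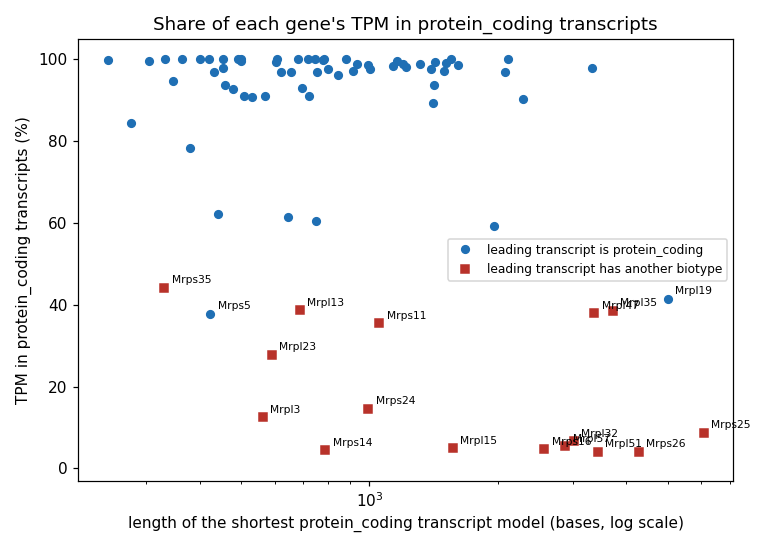
Percent of each gene's TPM in protein_coding transcripts (mean of both libraries, first quantifier) against the length of its shortest protein_coding model on a log axis. Squares, whose leading transcript has another biotype, all lie below 45%, and Mrpl51, Mrps26 and Mrps25, with long protein_coding models, are under 10%.

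For Mrpl33, among others, the division depended on the quantifier. Its protein_coding model held 86.2% and 99.2% of TPM in the first quantifier and 26.3% and 20.4% in the second, where the 367-base processed_transcript model Mrpl33-211 held 55.3% and 53.8%. The gene's summed level, 101 and 114 TPM in the first quantifier and 125 and 142 TPM in the second, moved far less. The mean protein_coding share of Mrpl22 was 91.1% in the first quantifier and 53.0% in the second. For Mrps21, the protein_coding model Mrps21-202 held 80.1% and 71.7% of TPM in the first quantifier and 0% in both libraries of the second.

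Promoter sequence was available for 69 of the 78 genes, as 75 windows of 300 bases. Some genes have several windows, and those of Mrpl2 and of Mrps16 overlap. The shares and intervals below count windows as if they were independent, which they are not. An ETS core lay in 26 of the 75 (34.7%, 95% Clopper-Pearson interval 24.0 to 46.5%). Of all 32851 RefSeq promoters 8.86% held it, and of promoters of detected nuclear protein-coding genes 18.4%. Promoters of the cytosolic ribosomal protein genes held it at 35.6%, close to the share of the mitochondrial set. The YY1 core lay in 5 (6.67%, interval 2.20 to 14.9%, beside 0.852% and 2.28%), namely those of Mrpl35, Mrpl37, Mrps11, Mrps18a and Mrps27. The NRF1 palindrome lay in 3 (4.00%, interval 0.833 to 11.2%, beside 0.971% and 2.21%), those of Mrpl9, Mrpl32 and Mrpl39. Both intervals include the share of detected genes. Promoters of the cytosolic set held the YY1 core at 5.48% and the NRF1 palindrome at 2.74%. The median GC content was 58.7% in member promoters, 58.0% in those of the cytosolic set, 52.7% in all and 61.0% in those of detected genes. Whether base composition bears on the motif shares was not tested.

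In the printed promoter of Mrps21 the ETS core begins 18 bases after the start and in that of Mrpl51 90 bases before it. Over all members there were 31 ETS cores, 17 in the direction of the gene and 14 in the other, and 27 of them (87.1%) began within 75 bases of the start. In detected nuclear protein-coding genes 70.0% of ETS cores did. The 26 genes with an ETS core had a median of 24.2 and 28.1 TPM and the 43 genes without one 15.4 and 18.3 TPM. Over all detected nuclear protein-coding genes, 1738 with an ETS core and 6244 without, the medians were 7.31 and 7.28 TPM in library 1 and 8.12 and 8.13 TPM in library 2. A match is a string in a window and no measure of binding, and Mrpl42 shows that a member can rank near the top with no exact match.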

How the data were processed

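In 2 tissue libraries of 1 group, RNA was measured by total RNA sequencing. Per the file headers, the first quantifier's deposited tables have RSEM's columns and the second quantifier's those of kallisto; aligner and versions: not given in the sources used here. Per the labels, the build is mm10, with GENCODE M21. Expected counts in the deposited tables are not whole because the authors' software shares reads between entries, and deposited TPM is corrected for transcript length over all entries, spike-ins included.

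Of 55536 annotated genes, 55450 were used. Levels used deposited TPM as given, or log2(TPM + 0.1). Ratios used expected counts rounded to whole numbers, TMM-scaled with edgeR 4.0.16 (R 4.3.3), for genes with a mean of at least 1 TPM, with Clopper-Pearson 95% intervals (scipy 1.17.1); ratios were checked on simulated data. A count of 0 allows up to 3 counts (0.0843 and 0.0869 CPM in libraries 1 and 2); intervals and floors cover counting error only. CAST reads were assigned to the mm10 reference, and no source used here says whether counting used strand; neither effect was tested. Members, gene lists and named genes (12 highest, 10 lowest, largest ratios in each direction, quantifiers over 2-fold apart, protein_coding share under 60%, role lists) were chosen with earlier results of these data known. Alternatives included DESeq2 1.42.0 size factors, spike-in totals and the second quantifier.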

Additional observations from a re-analysis of the deposited data

How the results depend on the processing

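Of 58 alternatives for 12 results, 43 stayed within a band around the main value and 15 moved. The band was the SD for levels, shares and differences, and 1.5-fold for counts of genes. It was 0.167 for the median log2 ratio, taken from the counting intervals, and the Clopper-Pearson interval for motif shares. Leaving out 1 library could not move a level, since each of 2 values lies closer to their mean than their SD. Filters that every member passed could not move a value either. With the second quantifier, the members' share of nuclear protein-coding TPM was 0.565%, the interquartile range 1.29, the cytosolic minus mitochondrial difference 3.36 and the median protein_coding share 94.9%. Over the TPM of all genes the share was 0.231%, and with 1 TPM added the interquartile range was 1.17. Deposited TPM gave a median log2 ratio of 0.19, near the 0.17 of all genes, and 2 members past 1.5-fold, Mrpl19 and Mrpl23. None passed with the second quantifier, among members with a summed count of at least 1000, or at 2-fold (0 in each), and 1 passed under the other scalings. One alternative was chosen after seeing the data: with the counts of Mrpl23-ps1 added to Mrpl23, the share was 0.562% and 0 members passed 1.5-fold. The shorter ETS string CGGAAG and the NRF1 palindrome with 1 free base lay in 53.3% and 17.3% of member promoters, beside 16.9% and 4.60% of all promoters, 31.8% and 10.9% of those of detected nuclear protein-coding genes and 60.3% and 6.85% of those of cytosolic ribosomal protein genes.

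Without replicate 1 or 2, the large minus small difference ranged from -0.026 to 0.14 and changed sign; the conserved minus mitochondria-specific difference ranged from 0.36 to 0.57. Ratios between libraries need both, so no library could be left out of them. No paired analysis was possible because there is only 1 group. With 2 libraries each SD rests on 1 degree of freedom, and reads shared between identical sequences limit Mrpl23 at any depth.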

Other observations

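Some members start close to a neighbour on the other strand. In 18 of 78 genes (23.1%) another protein-coding gene started in the opposite direction within 500 bases, with at most 100 bases of overlap between the annotated genes, as did 10.9% of the 10081 nuclear protein-coding genes with a mean of at least 1 TPM. No test of this difference was made. Mrps11 and Mrpl46, both members, also start in opposite directions near each other, but their 5′ ends overlap by more than 100 bases, so neither was counted. The pairs given here were chosen after their values were seen. Mrpl36, at 15.8 and 18.3 TPM, lies beside Ndufs6, a subunit of respiratory complex I, at 170 and 191 TPM, and the annotated genes overlap by 29 bases. Mrps12, at 15.0 and 17.0 TPM, starts 172 bases from Sars2, the mitochondrial seryl-transfer RNA synthetase, at 5.05 and 6.50 TPM. Mrps27 (9.61 and 9.94 TPM) starts 81 bases from Ptcd2 (9.58 and 10.5 TPM), which acts on mitochondrial RNA.

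Levels differed widely within some pairs and little within others. Mrpl49, at 8.60 and 10.1 TPM, starts 59 bases from Fau, which encodes a cytosolic ribosomal protein, at 199 and 208 TPM. Mrpl30, at 99.3 and 121 TPM, starts 66 bases from Mitd1 at 0.78 and 0.41 TPM. By contrast, Mrpl54 (41.5 and 45.5 TPM) and Apba3 (39.4 and 43.6 TPM), 26 bases apart, had close levels in both libraries. The pair Mrpl32 and Psma2, a proteasome subunit, start 75 bases apart at 13.7 and 20.9 TPM in library 1 and at 17.2 and 22.2 TPM in library 2.

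The 78 genes lie on 17 chromosomes, with 11 of them on chromosome 11, among them Mrpl12, Mrpl45 and Mrps24.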
